A study of Mus musculus with 37 samples.

Results

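The miR-99/100 and miR-125 microRNAs are small RNAs that mouse chromosomes 9, 16 and 17 encode next to let-7 genes. They were followed here through 6 TaqMan assays, chosen by assay name: miR-99a, mmu-miR-99a, miR-99b, miR-100, miR-125a and miR-125b. These are 6 of the 459 assays in each of 37 quantitative PCR runs on sorted stem and progenitor cells of mouse muscle, blood and brain. Each run gave a threshold cycle (Ct) per assay. A lower Ct means more RNA, 1 cycle is 1 log2 unit if each cycle doubles the product, and 40 stands for no amplification. An assay was called detected below Ct 35.

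Wildtype C57/Bl6 mice gave muscle satellite cells (MuSC, 4 runs; integrin-7+ CD34+ cells of tibialis anterior muscle, negative for Sca1, CD31, CD11b and CD45), limb myoblasts (Myoblast, 4 runs) and long-term blood stem cells (LT-HSC, 4 runs; Lin- marrow cells whose sort included Sca-1+ and Endoglin+). The progenitor gate Kit+ Sca-1+ Lin- (KSL) was sorted from wildtype C57/Bl6 marrow (KSL-B6, 3 runs) and from wildtype mice labelled Mixed 129Sv/J:C57Bl6 (KSL-Mixed, 2 runs). The same gate came from AML-ETO9a transgenic C57/Bl6 mice (KSL-ETO, 3 runs) and from Rb family triple knockout mice on the Mixed 129Sv/J:C57Bl6 background (KSL-RbTKO, 2 runs). The sources used here do not state which promoter drives the transgene or how the Rb family was deleted. Leukaemia came from mice transduced with the oncogene MLL-AF10, labelled wildtype C57/Bl6, as Kit+ leukaemia stem cells (MLL-LSC, 3 runs) and as the Kit- cells derived from them (MLL-Prog, 3 runs). Wildtype neural stem and progenitor cells of the SVZ and DG, labels for the subventricular zone and the dentate gyrus, were isolated at postnatal day 0 (NSPC-P0), cultured from these isolates into neurospheres (NSPC-P0-Exp), or, from adult mice, grown as primary neurospheres (NSPC-Adult). Each neural population had 3 runs. Strain labels for the neural cells read C57/Bl6, except for adult replicates 2 and 3 (C57/Bl7 and C57/Bl8). Beyond newborn and adult, ages were not stated. The MuSC runs formed 2 pairs of near-identical repeats (1 with 2, and 3 with 4), each averaged to 1 sample, which left 35 samples in all. Since no label states whether replicates came from different animals or cultures, the p-values cover only the spread between the samples at hand, which may be technical.

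A microRNA guides silencing complexes to messenger RNAs mainly through its seed, the bases near its 5′ end. The miR-125 microRNAs are known from mouse and human work for expanding blood stem cells when overexpressed, and for leukaemia in mice at high levels, while the miR-99/100 seed is known for targeting the mTOR pathway. In the mouse genome each cluster joins 1 microRNA of the miR-99/100 family, 1 let-7 and 1 miR-125.

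The mature sequences are shown because each family shares 1 seed, and because sequences this close bear on which RNA an assay can read. They are from RefSeq (GRCm38.p6), taken as the 5p arms of the assay names, with the seed (bases 2 to 8) in capitals. The probe sequences of the assays were not used here.
miR-99a: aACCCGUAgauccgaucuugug
miR-100: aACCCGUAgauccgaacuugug
miR-99b: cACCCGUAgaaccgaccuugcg
miR-125a: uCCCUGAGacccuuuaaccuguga
miR-125b: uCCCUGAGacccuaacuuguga
miR-351: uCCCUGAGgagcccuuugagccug

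Counted from the 5′ end, miR-99a and miR-100 differ by 1 substitution, U16A, over 22 bases. From miR-99a to miR-99b there are 4, A1C, U11A, U16C and U21C. miR-125a (24 bases) and miR-125b (22 bases) share their first 13 bases. miR-351, whose gene lies on chromosome X, shares only the first 8 bases with either.

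By RefSeq the chromosome 17 cluster holds miR-99b (chr17:17830194-17830215, + strand), let-7e and miR-125a (chr17:17830817-17830840, + strand) within 0.692 kb, inside the span of the protein-coding gene Spaca6. The chromosome 9 cluster holds miR-100 (chr9:41531437-41531458, + strand), let-7a-2 and miR-125b-1 (chr9:41581940-41581961, + strand) over 50.6 kb, inside the span of the long non-coding RNA gene Mir100hg. On chromosome 16, miR-99a (chr16:77598940-77598961, + strand), let-7c-1 and miR-125b-2 (chr16:77646279-77646300, + strand) lie over 47.4 kb, with no spanning gene in that annotation. The mature miR-125b is the same from both loci, so its assay cannot tell them apart. What separates the assay miR-99a from mmu-miR-99a is not stated in the sources used here. They are described apart.

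Detection of the members differed widely between populations. Of all 222 member values, 132 lay below Ct 35. The 9 neural runs detected every member, 54 of 54 values, and wildtype KSL cells 29 of 30. LT-HSC detected 2 of 24, KSL-ETO 3 of 18, KSL-RbTKO 1 of 12 and the MLL-AF10 cells 1 of 36. For the 4 assays miR-99a, miR-99b, miR-100 and miR-125b, 20 of 20 values were detected in wildtype KSL cells. There were 1 of 16 in LT-HSC, 0 of 12 in KSL-ETO, 0 of 8 in KSL-RbTKO and 0 of 24 in the MLL-AF10 cells. This set leaves out miR-125a and mmu-miR-99a, the only members detected in KSL-ETO, KSL-RbTKO or MLL-AF10 cells, so its sharper split follows from that choice. The runs of low detection were not the same in every respect. All assays together gave 61 to 65 detected per run in KSL-RbTKO, 65 to 90 in MuSC and 73 to 96 in LT-HSC, but 111 to 113 in KSL-ETO and 109 to 125 in the MLL-AF10 cells, against 98 to 143 elsewhere. In sorted cells pooled in a tube, fewer cells holding a microRNA and less of it per cell cannot be told apart.

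**Figure D1:**
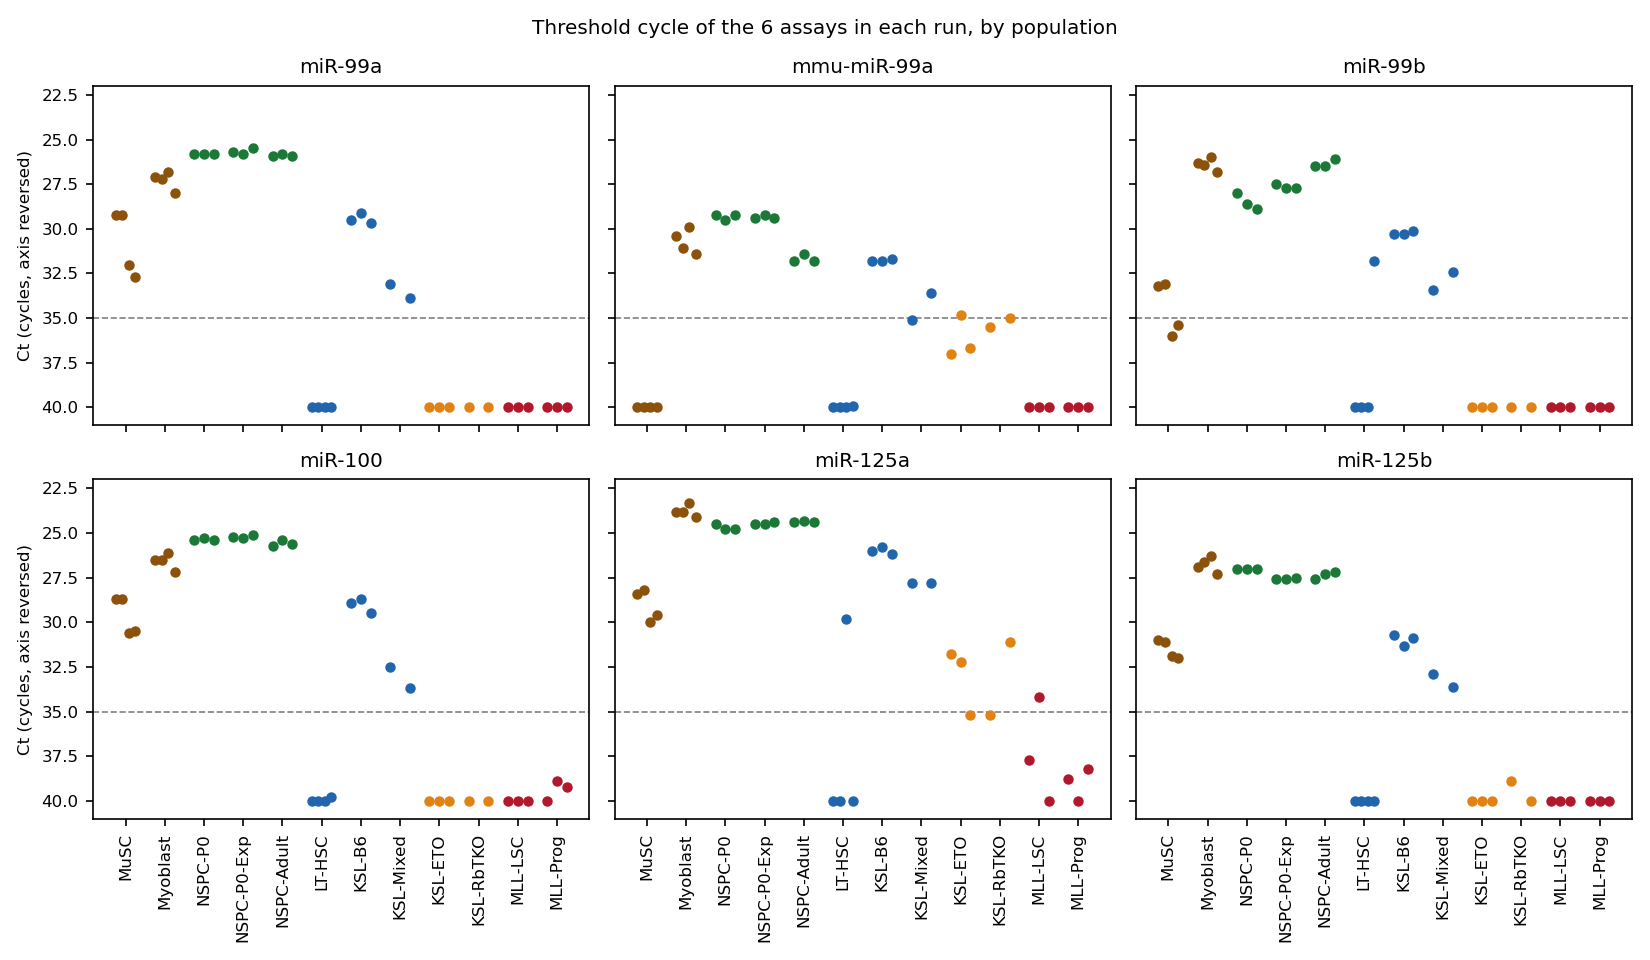
Ct (cycles, axis reversed so that more RNA is higher) of the 6 assays in each of the 37 runs, 1 point a run, by population, with brown for muscle, green for brain, blue for normal blood, orange for KSL-ETO and KSL-RbTKO and red for MLL-AF10 leukaemia. The dashed line marks Ct 35, and points at 40 did not amplify. The neural and myoblast points sit highest, and the red points of miR-99a, miR-99b and miR-125b all stand at 40.

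The populations were checked against marker microRNAs. Of the 3 muscle marker assays, miR-206 stood at Ct 28.7 to 29.0 in MuSC and 20.7 to 22 in Myoblast. miR-1 and miR-133a were below Ct 35 in 0 of 4 MuSC runs, and in 4 and 3 of 4 Myoblast runs. miR-206 was also detected outside muscle, at Ct 31.1 to 33.1 in the MLL-AF10 runs and 32.4 to 34.3 in NSPC-Adult. miR-223, the myeloid microRNA, stood at Ct 17.3 to 24.6 in the blood populations, and 5 of 5 blood marker assays were detected in each KSL-B6, KSL-Mixed, KSL-ETO and MLL-AF10 run. LT-HSC runs detected 4 or 5, and KSL-RbTKO runs 3, with miR-142-5p and mmu-miR-142-3p in no run. Some blood markers were also detected outside blood. miR-150 was detected in every MuSC, Myoblast, NSPC-P0 and NSPC-Adult run, at Ct 25.7 in NSPC-P0. miR-223 stood at Ct 27.3 to 29.7 in NSPC-P0 and was detected in some runs of each other muscle and neural population. miR-142-5p and mmu-miR-142-3p were detected in no muscle or neural run. The neural marker mmu-miR-9 was below Ct 35 in 0 of the 37 runs, and stood at 35 to 40 in NSPC-Adult and 40 in the newborn neural runs, so whether its assay works is not known from these data. miR-124a and mmu-miR-124a were not detected in the NSPC runs either. miR-128a, of the same list, was detected in 3 of 3, 2 of 3 and 3 of 3 runs of NSPC-P0, NSPC-P0-Exp and NSPC-Adult, but also in all MLL-AF10 runs, so the neural label was not checked by a marker of its own.

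Across populations, levels were compared after subtracting the Ct from the run's own mean over 28 assays that every run detected. The result is a scaled log2 level, given as mean ± SD over samples. It compares 1 assay between populations, not 1 assay with another. The orders of populations below were drawn with this scaling only. miR-99a was highest in NSPC-P0 (1.13 ± 0.13, n = 3), followed by NSPC-P0-Exp (0.67 ± 0.06, n = 3), NSPC-Adult (-0.44 ± 0.13, n = 3), Myoblast (-1.04 ± 0.30, n = 4), MuSC (-2.42 ± 2.13, n = 2), KSL-B6 (-4.28 ± 0.32, n = 3) and KSL-Mixed (-6.53 ± 0.83, n = 2). The MuSC samples overlapped with Myoblast above and with KSL-B6 below, and no other neighbours in that order overlapped. miR-100 kept the same order, from 1.57 ± 0.15 in NSPC-P0 to -6.13 ± 1.11 in KSL-Mixed, with overlap between NSPC-Adult, Myoblast and MuSC. miR-125b also peaked in NSPC-P0 (-0.07 ± 0.13), but with Myoblast second (-0.54 ± 0.24) and without overlap between them.

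By scaled level the chromosome 17 pair had its peak elsewhere. miR-99b was highest in Myoblast (-0.14 ± 0.10, n = 4), then in NSPC-Adult (-0.94 ± 0.14), NSPC-P0-Exp (-1.30 ± 0.18) and NSPC-P0 (-1.57 ± 0.33), of which the last 2 overlapped. The mean Ct of miR-99b was 26.4 in both Myoblast and NSPC-Adult, so the order of these populations rests on the scaling. miR-125a was highest in Myoblast as well (2.49 ± 0.11), above NSPC-P0 (2.23 ± 0.07) without overlap. At its lower end MuSC (-0.69 ± 0.97), KSL-Mixed (-0.83 ± 0.26) and KSL-B6 (-0.85 ± 0.21) overlapped in order. For miR-99a, miR-100 and miR-125b the KSL means lay below those of the satellite cells by more than for miR-125a.

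Populations in which no run detected an assay have only an upper limit, set by Ct 35 in each run. For miR-99a that limit was -7.55 to -6.46 in LT-HSC, -8.83 to -8.61 in KSL-ETO, -9.97 to -9.61 in MLL-LSC, -8.95 to -8.69 in MLL-Prog and -5.67 to -5.23 in KSL-RbTKO. The limits of KSL-ETO and of the MLL-AF10 cells lay below every wildtype KSL sample. The limits of KSL-RbTKO lay above both KSL-Mixed samples, so for those runs miR-99a could be as high as in KSL-Mixed without being seen.

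Over the 12 population means, the members were alike. Pearson's r was 0.998 between miR-99a and miR-100, 0.984 between miR-100 and miR-125b, and 0.851 to 0.998 over all pairs of members. These correlations describe 12 points that share the same runs and the same scaling, and populations at their limit add to them. Among assays outside the families, the highest r came from miR-218 for miR-99a (0.885), miR-99b (0.858), miR-100 (0.860) and miR-125b (0.856), from miR-130aN for miR-125a (0.911) and from miR-132 for mmu-miR-99a (0.872). For let-7c, the let-7 next to miR-99a, r with the members was 0.456 to 0.708.

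Between tissues, over the normal C57/Bl6 populations and NSPC-Adult, all 6 members were lower in blood and higher in brain. The blood side holds LT-HSC, which detected 2 of 24 member values and otherwise stood at the limit. Differences are log2 differences of scaled level ± standard error from limma, a linear model over all tested assays, with Benjamini-Hochberg adjustment and a call at adjusted p under 0.05. Each tissue was compared with the average of the remaining tissues, so the 3 contrasts of an assay share their samples. In all 3 contrasts, errors and p-values cover the spread of samples within populations, not that between the populations of a tissue. Blood was lower by -4.64 ± 0.10 for miR-125b (adjusted p = 2.17e-16), -5.16 ± 0.17 for miR-100 (adjusted p = 6.75e-14) and -4.69 ± 0.27 for miR-99a (adjusted p = 7.42e-11), with 7 blood samples against 15. LT-HSC stood at the limit for these 3 assays, with 0 of 4 runs detected. These falls are therefore minimum values, and their errors are understated. In blood, 41.4% of all 169 tested assays were called lower. The blood samples of miR-100 and miR-125b all lay below every muscle and brain sample, as in 7.1% of tested assays whose groups did not overlap. For miR-125a, KSL-B6 (-0.98 to -0.61 on the scale over all populations) lay within the range of MuSC (-1.38 to -0.01), and LT-HSC detected it in 1 of 4 runs.

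Brain was higher than the average of blood and muscle for 6 of 6 members, where 34.3% of tested assays were called higher. The difference was 3.98 ± 0.25 for miR-99a (adjusted p = 3.61e-10) and 2.91 ± 0.25 for miR-99b (adjusted p = 2.38e-08), with 9 brain samples against 13. LT-HSC, mostly at the limit, is part of that average, so both rises are minimum values with understated errors. The brain samples of every member but miR-99a overlapped with those of blood and muscle. For miR-99b and miR-125a, Myoblast lay above every neural population. LT-HSC enters the muscle contrasts in the same way. In muscle 4 of 6 members were called higher, where 30.8% of tested assays were. These were miR-99a (0.71 ± 0.29), miR-100 (1.34 ± 0.18), miR-125a (1.58 ± 0.49) and miR-125b (1.75 ± 0.11). The miR-99a call (adjusted p = 0.0464) was close to the threshold. Its difference was -0.04 (adjusted p = 0.843) without the sample of MuSC runs 1 and 2. The call was also lost, at 0.63 to 0.72 with adjusted p of 0.0532 to 0.0868, without any 1 of LT-HSC replicates 2 to 4, NSPC-Adult, NSPC-P0 or Myoblast replicates 1 to 3, NSPC-P0-Exp replicates 1 and 3, or KSL-B6 replicates 1 and 3. With no scaling of the runs it was -0.03. Without that same MuSC sample miR-125a stood at 1.24 (adjusted p = 0.105), and with no scaling at 0.78 (adjusted p = 0.245). miR-99b, at 0.48 ± 0.28 (adjusted p = 0.191), stood at 1.07 (adjusted p = 0.00374) without MuSC runs 3 and 4 and at 0.61 (adjusted p = 0.00633) without LT-HSC replicate 4. mmu-miR-99a, at -0.30 ± 0.13 (adjusted p = 0.0567), was called lower at -0.39 to -0.32 without any 1 of LT-HSC replicate 3, NSPC-Adult replicate 3, Myoblast replicates 1 and 3 or NSPC-P0-Exp replicate 3. It was also called lower at -1.32 with quantile normalization, -1.11 with no scaling and -0.52 with the median as centre.

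From satellite cells to myoblasts, miR-99b, miR-125a, miR-125b and mmu-miR-99a were called higher, and miR-99a and miR-100 did not pass the test. miR-99b stood at Ct 33.2, 33.1, 36.0 and 35.4 in the 4 MuSC runs, and at 26.3, 26.4, 26.0 and 26.8 in the 4 Myoblast runs. miR-125a went from Ct 28.4, 28.2, 30.0 and 29.6 to 23.8, 23.8, 23.3 and 24.1. miR-125b went from Ct 31.0, 31.1, 31.9 and 32 to 26.9, 26.6, 26.3 and 27.3. Every Myoblast run lay below every MuSC run in Ct for all members, also those not called. MuSC runs detected fewer assays in all, 65 to 90 against 131 to 139 in Myoblast. The scaled levels of these 3 members and of mmu-miR-99a did not overlap, as for 68.5% of tested assays. With 4 Myoblast samples against 2 MuSC samples, the rise was 4.98 ± 0.43 for miR-99b (31.5-fold, adjusted p = 0.000393), 2.59 ± 0.35 for miR-125a (6.01-fold, adjusted p = 0.00224) and 2.01 ± 0.22 for miR-125b (4.03-fold, adjusted p = 0.00108). The sizes depended on the scaling. With quantile normalization they were 5.13, 1.35 and 0.50 for the same members in that order, and with no scaling 7.70, 5.30 and 4.72, with the call kept for each.

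miR-99a stood at Ct 29.2, 29.2, 32 and 32.7 in MuSC and 27.1, 27.2, 26.8 and 28.0 in Myoblast, a scaled difference of 0.79 ± 0.82 (adjusted p = 0.444). miR-100 stood at Ct 28.7, 28.7, 30.6 and 30.5 in MuSC and 26.5, 26.5, 26.1 and 27.2 in Myoblast, a scaled difference of 0.34 ± 0.45 (adjusted p = 0.555). The MuSC samples straddled the myoblasts after scaling. Without MuSC runs 1 and 2 the differences were 2.19 and 1.09, both called higher, and without MuSC runs 3 and 4 they were -0.87 and -0.67, both called lower. With quantile normalization they were -0.73 (adjusted p = 0.299) and -0.90 (adjusted p = 0.0382), and with no scaling 3.50 and 3.05, both called higher. mmu-miR-99a was undetected in all 4 MuSC runs and stood at Ct 30.4, 31.1, 29.9 and 31.4 in Myoblast, so its rise was at least 1.42 ± 0.30 (adjusted p = 0.0114, and 0.0538 without MuSC runs 1 and 2).

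In all, 4 of 6 members were called higher in Myoblast, against 45.7% of the 127 tested assays, and their median difference was 1.71 against 1.09 over all tested assays. The let-7 list, 10 assays of which 8 were tested, had 0 higher and 3 lower. mmu-miR-351, which shares the miR-125 seed, was detected in 0 of 4 MuSC runs and 4 of 4 Myoblast runs, a rise of at least 3.57 ± 0.12 (adjusted p = 1.56e-05). The mesenchymal marker list moved the same way, from a summed log2 level of -1.61 to -0.60 in MuSC to 1.05 to 1.23 in Myoblast, with 2 of its 5 assays in no run of each. Its part in these differences was not tested.

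In blood all 6 members were called higher in KSL-B6 than in LT-HSC, where 49.6% of the 121 tested assays were. Each was tested through KSL-B6 alone, with 0 or 1 of 4 LT-HSC runs detected. A call could then hardly be other than higher, while the share covers assays tested through either population. With the median as centre 4 of 6 were called, without miR-99b and mmu-miR-99a, the latter at 0 because both groups then lay at the limit. miR-100 was undetected in the 4 LT-HSC runs (Ct 39.8 to 40) and stood at Ct 28.9, 28.7 and 29.5 in KSL-B6. miR-99a was undetected in LT-HSC and stood at Ct 29.5, 29.1 and 29.7. miR-125b was undetected in LT-HSC and stood at Ct 30.7, 31.3 and 30.9. For these members the groups did not overlap, as for 69.4% of tested assays. With the mean as centre, the rises were at least 3.38 ± 0.22 for miR-100 (adjusted p = 2.4e-05), at least 2.98 ± 0.18 for miR-99a (adjusted p = 1.81e-05) and at least 1.45 ± 0.13 for miR-125b (adjusted p = 0.00012). mmu-miR-99a, at Ct 31.7 to 31.8 in KSL-B6, was higher by at least 0.65 ± 0.09 (adjusted p = 0.000761). These bounds hold for that centring only, and with the median as centre they were 2.5 for miR-100, 2.10 for miR-99a and 0.57 for miR-125b, all still called.

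The chromosome 17 pair appeared in single LT-HSC runs. miR-125a stood at Ct 29.8 in LT-HSC replicate 3 and 40 in the other 3 runs, against 26.0, 25.8 and 26.2 in KSL-B6. miR-99b stood at Ct 31.8 in LT-HSC replicate 4 and 40 in the other 3, against 30.3, 30.3 and 30.1. Neither run that showed 1 of the pair showed the other. With undetected runs at the limit, the rise of miR-125a was 5.30 ± 1.21 (adjusted p = 0.00867), and that of miR-99b was 1.64 ± 0.59 (adjusted p = 0.0482). After scaling, the 1 detected miR-99b value in LT-HSC overlapped with KSL-B6. The miR-99b call was lost without any 1 of the 6 samples other than LT-HSC replicate 4, with differences of 1.47 to 1.91 and adjusted p of 0.0902 to 0.124.

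The members' median difference in this step was 2.31, against 1.14 over all tested assays and 2.19 for the let-7 list. That list had 5 higher and 1 lower of 8 tested. Testing through KSL-B6 alone bears on the members' median too. The all-assay median depended on the centring, at 0.37 with the median of the common assays. With that centring 38 of 60 called assays were higher, against 60 of 78 by the mean. The blood marker list was higher in LT-HSC, with a summed log2 level of 8.49 to 9.09 against 4.35 to 4.87 in KSL-B6, and 0 of its 5 assays were missed in all runs of either. The endothelial list moved with the members, from a summed log2 level of -4.23 to -0.64 in LT-HSC to 0.72 to 0.95 in KSL-B6, with miR-126* in no LT-HSC run. The erythroid list was at -4.23 to -0.91 in LT-HSC, with 0 to 2 of 2 assays detected a run, and in no run of KSL-B6. The epithelial list was at -1.18 to 1.25 in LT-HSC and -1.77 to -1.30 in KSL-B6, with 2 of 6 assays in no run of each. The part of these lists in the differences was not tested.

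**Figure D2:**
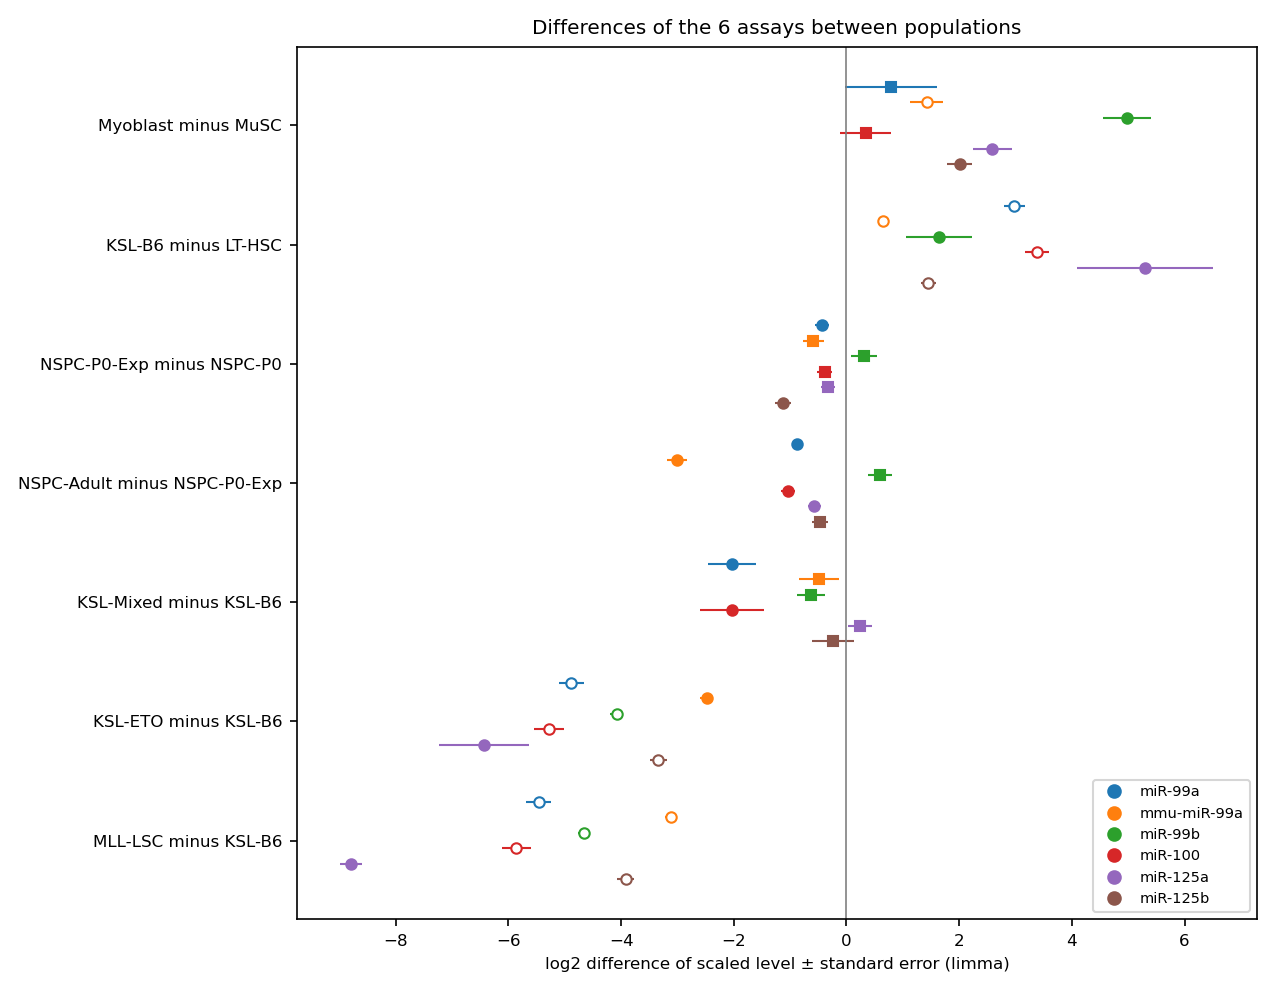
Log2 difference of scaled level between populations (horizontal axis) ± standard error from limma for the 6 assays, 1 row of points a comparison. Circles mark called differences and squares those not called, and open symbols are bounds because no run of 1 population detected the assay. Filled symbols can still include some runs at the limit. The points of KSL-ETO and MLL-LSC against KSL-B6 all lie left of zero, from -8.79 to -2.48.

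MLL-AF10 leukaemia stem cells lacked nearly all member signal that KSL-B6 cells had. In the 3 MLL-LSC runs miR-99a, miR-99b, miR-100, miR-125b and mmu-miR-99a all stood at Ct 40. miR-125a stood at Ct 37.7, 34.2 and 40, so 1 run detected it, against Ct 26.0, 25.8 and 26.2 in KSL-B6. The groups did not overlap for any of the 6 members, as for 74.1% of tested assays. All 6 were called lower, where 31.1% of the 135 tested assays were. Each member was tested through KSL-B6 alone, so a call could hardly be other than lower. The share also covers assays tested through MLL-LSC or through both populations. The fall was -8.79 ± 0.19 or lower for miR-125a (443-fold or more, adjusted p = 1.31e-06, with 2 of 3 runs at the limit), and -5.86 ± 0.26 or lower for miR-100 (adjusted p = 1.15e-05). It was -5.46 ± 0.22 or lower for miR-99a (adjusted p = 9.02e-06), -4.66 ± 0.11 or lower for miR-99b (adjusted p = 1.31e-06), -3.92 ± 0.15 or lower for miR-125b (adjusted p = 7.71e-06) and -3.12 ± 0.10 or lower for mmu-miR-99a (adjusted p = 5.33e-06). A group held at the limit has no spread of its own apart from scaling, so these errors are understated.

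KSL cells carrying AML-ETO9a showed a like fall with the same gate and strain. miR-99a, miR-99b, miR-100 and miR-125b stood at Ct 40 in all 3 KSL-ETO runs. miR-125a stood at Ct 31.8, 32.2 and 35.2, and mmu-miR-99a at 37.0, 34.8 and 36.7. No KSL-ETO run overlapped with KSL-B6 for any member, as for 74.4% of tested assays. All 6 were called lower, where 38.4% of the 125 tested assays were. Here too each member was tested through KSL-B6 alone, which favours a lower call, while the share covers assays tested through either population. miR-125a was lower by -6.43 ± 0.80 or lower (adjusted p = 0.000655), miR-100 by -5.28 ± 0.27 or lower (adjusted p = 1.07e-05) and miR-99a by -4.88 ± 0.22 or lower (adjusted p = 6.87e-06). miR-99b was lower by -4.08 ± 0.11 or lower, miR-125b by -3.34 ± 0.15 or lower and mmu-miR-99a by -2.48 ± 0.12 or lower, with adjusted p of 6.24e-07 to 8.37e-06. For mmu-miR-99a 1 of 3 KSL-ETO runs was below Ct 35, and for miR-125a 2 of 3 were.

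Both comparisons use the same 3 KSL-B6 samples as controls, so they are not independent of each other. The members' medians were -5.06 for MLL-LSC and -4.48 for KSL-ETO, against 0.16 and -0.01 over all tested assays. The all-assay medians include assays tested through the other population or through both. The scaling moved those all-assay medians to between 0.35 and 0.53 for MLL-LSC, and to between -0.50 and 0.47 for KSL-ETO. The number of members called lower stayed at 6 of 6 in each comparison with no scaling, with the median as centre and with quantile normalization. The blood marker list was detected in full in both, with summed log2 levels of 7.72 to 7.86 in MLL-LSC, 2.98 to 3.18 in KSL-ETO and 4.35 to 4.87 in KSL-B6. The endothelial list moved with the members, from 0.72 to 0.95 in KSL-B6 to -4.23 to -2.94 in MLL-LSC and -0.28 to 0.04 in KSL-ETO, with 1 of its 2 assays in no run of either. Its part in these differences was not tested.

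let-7c, a neighbour of miR-99a, was higher in MLL-LSC and lower in KSL-ETO than in KSL-B6, and was detected in all their runs. It stood at Ct 23.8, 23.9 and 23.9 as lowest, median and highest in MLL-LSC, at 25.9, 26.1 and 26.2 in KSL-ETO, and at 24.9, 25.1 and 25.1 in KSL-B6. Its difference from KSL-B6 was 0.86 ± 0.11 in MLL-LSC (adjusted p = 0.00108) and -0.54 ± 0.13 in KSL-ETO (adjusted p = 0.0104). let-7c also has a gene on chromosome 15 and let-7a one on chromosome 13, so neither assay reads the clusters alone. let-7a was detected in 3 of 3 MLL-LSC runs at Ct 31.9 to 33.6 and in 0 of 3 KSL-ETO runs, against 32.9 to 34.0 in KSL-B6, and its difference was 0.62 ± 0.51 in MLL-LSC (adjusted p = 0.315) and -0.74 ± 0.31 or lower in KSL-ETO (adjusted p = 0.0732). let-7e, the neighbour of miR-99b and miR-125a, stood at Ct 40 in all 37 runs, also where both its neighbours were strong, so its assay says nothing here. Of the 8 tested let-7 assays, 3 were higher and 1 lower in MLL-LSC, and 1 higher and 3 lower in KSL-ETO.

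**Figure D3:**
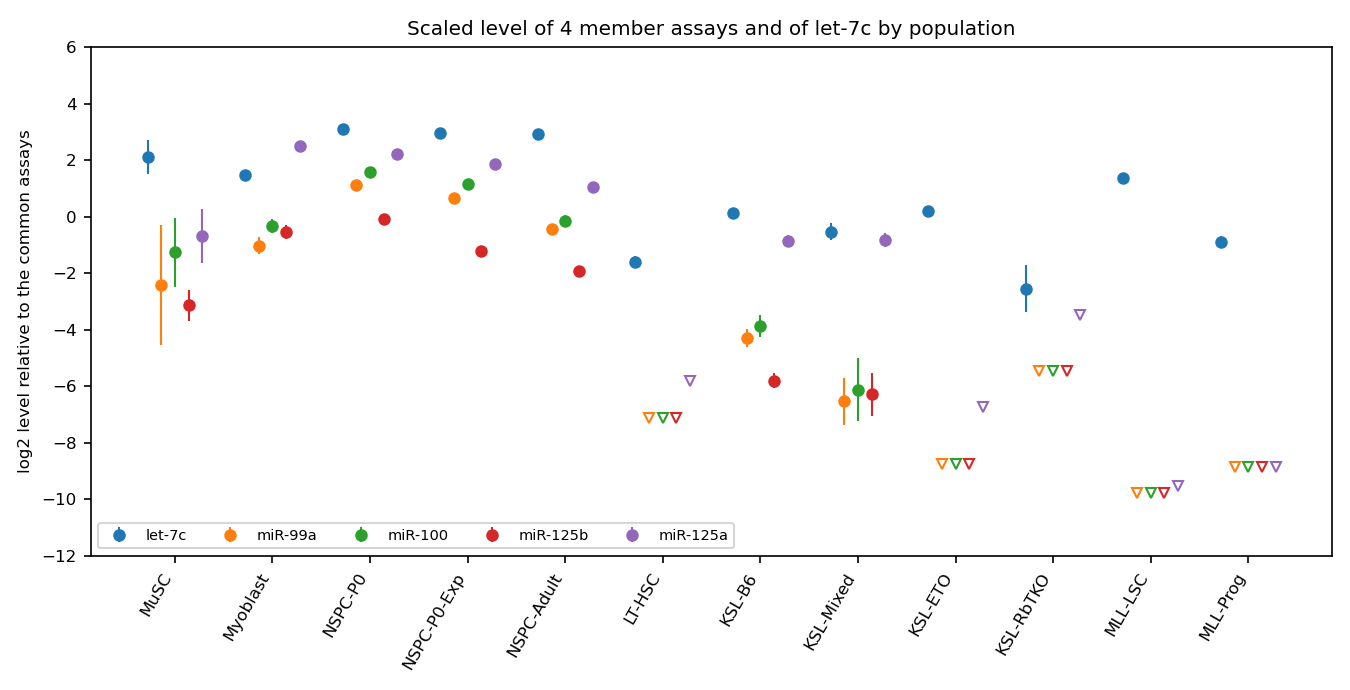
Scaled log2 level (vertical axis, relative to the 28 common assays) of let-7c, miR-99a, miR-100, miR-125b and miR-125a in the 12 populations, as mean ± SD over samples. Open triangles are populations in which at least 1 run did not detect the assay and stands at its own limit. let-7c is lowest in KSL-RbTKO at -2.55, while the triangles of miR-99a, miR-100 and miR-125b reach -9.78 in MLL-LSC.

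Within the leukaemia, and between leukaemic and normal stem cells, no member passed the filter, because no population in either comparison had a member below Ct 35 in every run. With all 459 assays tested in limma, 0 of 6 members were called in each comparison and 0 of 6 had an unadjusted p under 0.05. Only 2 of 24 member values in LT-HSC and 1 of 36 in the MLL-AF10 cells were detected. The rest stood at the limit, so this outcome was nearly fixed in advance and nothing is read from it. In MLL-Prog, miR-100 stood at Ct 40, 38.9 and 39.2 and miR-125a at 38.8, 40 and 38.2, all past the limit, and the other 4 stood at 40. LT-HSC and MLL-LSC were both without detected miR-99a, miR-100, miR-125b and mmu-miR-99a. The absence of these assays in MLL-LSC therefore sets them apart from KSL-B6, not measurably from LT-HSC.

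Rb family triple knockout KSL cells gave no member call. miR-99a, miR-99b and miR-100 stood at Ct 40 in both runs, where KSL-Mixed had 33.1 and 33.9 for miR-99a, 33.4 and 32.4 for miR-99b, and 32.5 and 33.7 for miR-100. miR-125b stood at 38.9 and 40, against 32.9 and 33.6. The raw Ct values did not overlap for these 4 assays. KSL-RbTKO runs detected fewer assays in all, 61 to 65 against 98 to 102 in KSL-Mixed. The share of all assays with such a raw split is not given here, so the split is not read as a trait of the members. After scaling the limit of the KSL-RbTKO runs lay near or above the KSL-Mixed levels, so no difference was measurable at this depth. For miR-125a neither the raw Ct nor the scaled levels overlapped. It stood at Ct 35.2 and 31.1, against 27.8 and 27.8 in KSL-Mixed, a difference of -3.04 ± 1.55 (adjusted p = 0.241, n = 2 and 2 samples in limma). Without KSL-RbTKO replicate 2 it was -4.75 (adjusted p = 0.0299), and without KSL-Mixed replicate 4 the difference of miR-99b was called at -0.18 (adjusted p = 0.0386). In all, 0 of 5 tested members were called, where 30.9% of the 94 tested assays were. Of the 5, 2 had an unadjusted limma difference of 0 because both groups lay at the limit, and 0 of 5 passed an unadjusted p of 0.05.

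Between the wildtype KSL cells of both strains, 2 of 6 members were called lower in KSL-Mixed, where 31.3% of the 115 tested assays were. From C57/Bl6 to the mixed strain, miR-99a went from Ct 29.5, 29.1 and 29.7 to 33.1 and 33.9, and miR-100 from 28.9, 28.7 and 29.5 to 32.5 and 33.7. miR-125a went from Ct 26.0, 25.8 and 26.2 to 27.8 and 27.8. All KSL-Mixed runs had the higher Ct, but all assays together also ran later there, with 98 to 102 detected against 123 to 133. After scaling miR-99a was lower by -2.03 ± 0.43 (adjusted p = 0.0229) and miR-100 by -2.03 ± 0.57 (adjusted p = 0.0472), while miR-125a differed by 0.24 ± 0.21 (adjusted p = 0.432) and miR-125b by -0.24 ± 0.37 (adjusted p = 0.628). Differences between members were not tested. Both calls were lost without any 1 of the 3 KSL-B6 samples, at -2.21 to -1.82 for miR-99a and -2.31 to -1.82 for miR-100, and without KSL-Mixed replicate 5, at -1.43 and -1.23. Without that replicate miR-99b (-0.93, adjusted p = 0.0178) and mmu-miR-99a (-1, adjusted p = 0.00965) were called lower instead. They depended on the scaling too, with 0 of 6 members called when the median was the centre and 6 of 6 called lower with no scaling.

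In the newborn brain, 2 of 6 members were called lower after expansion as neurospheres, where 25.4% of the 126 tested assays were. miR-125b stood at Ct 27.0 in all 3 NSPC-P0 runs and at 27.6, 27.6 and 27.5 in NSPC-P0-Exp, a difference of -1.13 ± 0.14 (adjusted p = 0.0026), and of -0.50 with adjusted p = 0.136 with quantile normalization. miR-99a stood at 25.8 in all 3 NSPC-P0 runs and at 25.7, 25.8 and 25.5, a scaled difference of -0.43 ± 0.12 (adjusted p = 0.0386). With no scaling its difference was 0.13, and with quantile normalization -0.16, neither called. The miR-99a call was also lost without any 1 of 5 samples, with differences of -0.42 to -0.25. Over all assays, no scaling turned the split of calls from 27 higher and 32 lower to 45 and 22.

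Markers of other cell types were lower in the same step. The endothelial list went from a summed log2 level of 3.60 to 3.77 in NSPC-P0 to -2.62 to -0.07 in NSPC-P0-Exp, with 2 of 2 assays detected in each NSPC-P0 run. The choroid plexus list went from 2.25 to 5.83 to -4.23 to -2.97, and the blood list from 1.48 to 1.64 to -2.91 to -0.79. Their part in the differences of the members was not tested.

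Adult neurospheres differed from newborn ones in 4 of 6 members, all lower, where 15.2% of the 132 tested assays were called lower. The members' median was -0.72, against 0.46 over all tested assays and 1.56 for the let-7 list, in which 5 of 8 tested were higher and 0 lower. miR-100 stood at Ct 25.2, 25.3 and 25.1 in NSPC-P0-Exp and 25.7, 25.4 and 25.6 in NSPC-Adult, a difference of -1.04 ± 0.12 (adjusted p = 0.00236). miR-99a stood at 25.7, 25.8 and 25.5 and at 25.9, 25.8 and 25.9, a difference of -0.87 ± 0.10 (adjusted p = 0.00243). The raw Ct of miR-99a touched between the groups, and the scaled levels did not overlap. With no scaling the differences were -0.37 for miR-100 (adjusted p = 0.0525) and -0.20 for miR-99a (adjusted p = 0.187), and with quantile normalization the miR-99a difference was -0.77 (adjusted p = 0.084), so these calls were lost there. miR-125a differed by -0.57 ± 0.11 (adjusted p = 0.0121), by 0.10 with no scaling, and by -0.57 with adjusted p = 0.0561 without NSPC-Adult replicate 2.

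miR-99b went the other way in value, from Ct 27.5, 27.7 and 27.7 to 26.5, 26.5 and 26.1, but at 0.59 ± 0.21 it missed the threshold (adjusted p = 0.0711), and was called higher at 1.27 with no scaling. miR-125b, at -0.47 ± 0.15 (adjusted p = 0.053), also missed it, and was called at -0.55 without NSPC-Adult replicate 3 and at -0.53 without NSPC-P0-Exp replicate 3. mmu-miR-99a fell most, from Ct 29.4, 29.2 and 29.4 to 31.8, 31.4 and 31.8, a difference of -3.01 ± 0.18 (8.04-fold, adjusted p = 0.000551). Age and strain label move together in part here, since NSPC-Adult replicates 2 and 3 carry other strain labels, and their part was not tested. Those labels rise with the replicate number, so they may not mark other strains. The endothelial list was at -2.62 to -0.07 in NSPC-P0-Exp and -4.23 to -3.51 in NSPC-Adult, and the epithelial list at -2.64 to 1.39 and -2.64 to -2.20. The part of these lists was not tested either.

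Ct differences between a pair of assays within a run need no scaling. Since assays differ in efficiency, such a difference is not a ratio of RNAs, and only its change between populations was read. There were 5 pairs and 3 tissue contrasts, so 15 exact two-sided permutation tests over samples, with Benjamini-Hochberg adjustment over the 15. The permutations exchange samples, which are nested in the populations of a tissue. Their p-values therefore do not measure the spread between populations. Blood here means LT-HSC, KSL-B6 and KSL-Mixed. With Ct above 35 set to 35, LT-HSC runs that missed both assays of a pair enter with a difference of 0, so values over runs with both detected are given too.

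The gap between miR-125a and miR-125b was wider in KSL cells. miR-125a minus miR-125b was -5.5 to -4.7 cycles in the 3 KSL-B6 runs and -5.8 and -5.1 in KSL-Mixed, against -3.2 to -1.9 in all muscle runs and -3.2 to -2.2 in all neural runs. The KSL runs did not overlap with either tissue. Over samples with both detected, the mean was -5.16 ± 0.49 (SD, n = 5) in blood, -2.83 ± 0.38 (n = 6) in muscle and -2.80 ± 0.40 (n = 9) in brain, with adjusted exact permutation p of 0.0162 and 0.014. With LT-HSC at the limit the blood mean was -3.44 ± 2.61 (n = 9), and neither contrast passed (adjusted exact permutation p = 0.818 and 0.727). Muscle and brain differed by -0.03 cycles (adjusted exact permutation p = 0.911).

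Within the chromosome 17 cluster, miR-99b minus miR-125a was 4.58 ± 0.63 cycles in KSL cells (SD, n = 5) and 2.99 ± 0.82 in brain (n = 9), with both detected (adjusted exact permutation p = 0.014). With LT-HSC at the limit the contrast was -0.22 and did not pass (adjusted exact permutation p = 0.911). The pair was not fixed within a tissue either. It was 4.8 and 4.9 in MuSC runs 1 and 2, near-identical repeats that count as 1 sample, and 2.5 to 2.7 in Myoblast. MuSC runs 3 and 4 did not detect miR-99b and drop out. In the neural populations it was 3.5 to 4.1 in NSPC-P0, 3.0 to 3.3 in NSPC-P0-Exp and 1.7 to 2.2 in NSPC-Adult. Neither the muscle nor the neural populations overlapped among themselves, and these differences between populations were not tested.

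miR-99b against miR-100, a pair from chromosomes 17 and 9, moved in the same populations. The difference was 4.4 and 4.5 cycles in MuSC, again from 1 sample (runs 1 and 2), and -0.4 to -0.1 in Myoblast. In the neural populations it was 2.6 to 3.5 in NSPC-P0, 2.3 to 2.6 in NSPC-P0-Exp and 0.5 to 1.1 in NSPC-Adult. NSPC-Adult did not overlap with either newborn population. Between blood and brain it differed by -2.12 (adjusted exact permutation p = 0.0109), and by -1.48 over runs with both detected (adjusted exact permutation p = 0.0744).

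Within the chromosome 9 cluster, miR-100 minus miR-125b was -0.76 ± 0.92 cycles in muscle (SD, n = 6) and -1.93 ± 0.35 in brain (n = 9), a difference of 1.17 (adjusted exact permutation p = 0.0264). The muscle value came from Myoblast, at -0.4 to -0.1, while the MuSC runs lay at -2.4 to -1.3 and overlapped with the brain. miR-125b has a second gene on chromosome 16, so this pair does not read 1 locus.

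**Figure D4:**
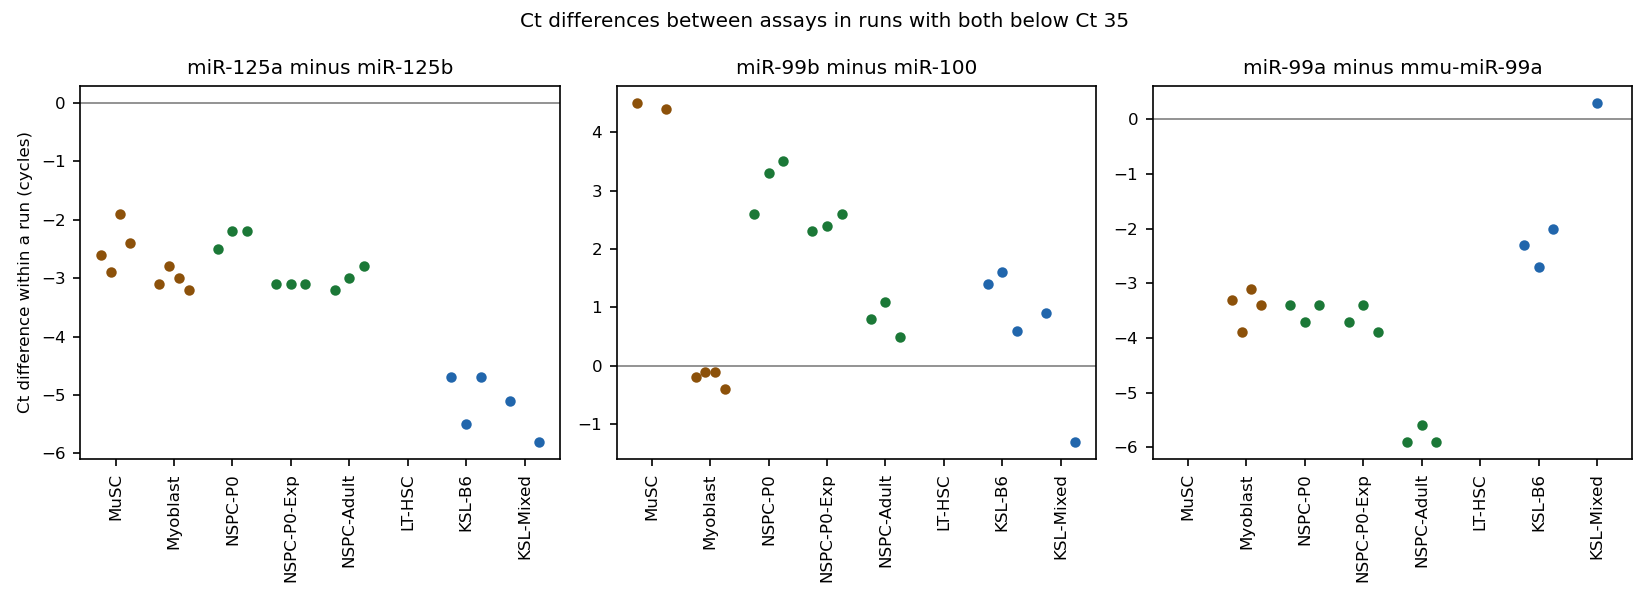
Ct difference within a run (cycles) for 3 pairs of assays in the 8 normal populations, 1 point for each run with both assays below Ct 35, with brown for muscle, green for brain and blue for blood. The KSL points of miR-125a minus miR-125b lie at -5.8 to -4.7, below all muscle and neural points, and miR-99a minus mmu-miR-99a lies at -5.9 to -5.6 in NSPC-Adult.

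The 2 assays named for miR-99a did not move together. miR-99a came up earlier than mmu-miR-99a by 3.4 to 3.9 cycles in the newborn neural runs, and the difference ran from -3.9 to -3.1 in Myoblast, from -2.7 to -2.0 in KSL-B6 and from -5.9 to -5.6 in NSPC-Adult. KSL-B6 and NSPC-Adult overlapped with no other of these populations. In blood the difference was smaller than in brain by 3.37 cycles (adjusted exact permutation p = 0.000617), and by 2.65 over runs with both detected (adjusted exact permutation p = 0.014). In KSL-Mixed replicate 5, with both detected, mmu-miR-99a came up earlier, at Ct 33.6 against 33.9, and in replicate 4 miR-99a did, at 33.1 against 35.1. In KSL-ETO and KSL-RbTKO the order turned too, with mmu-miR-99a at Ct 34.8 to 37.0 where miR-99a did not amplify. At those cycles mmu-miR-99a lies near or past the limit, so it is no evidence of miR-99a in these cells.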

How the data were processed

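The deposited values are Ct values to 1 decimal, 1 file a run, per the labels from multiplex reverse transcription and TaqMan PCR on 20 to 1000 sorted cells. The sources used here do not state the software, the threshold or any normalization. A nameless value was left out (1 in all). Runs whose Ct differences had an SD under 0.25 over assays below Ct 32 were averaged, which applied to MuSC, where other pairs of runs had 1.17 to 1.28.

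Members, lists, tests and alternatives were chosen with earlier results of these data known. The names given are the 6 members, let-7a, let-7c, let-7e, miR-351 and the 3 most alike assays per member.

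For each comparison Ct was centred on the mean of the assays detected in every run compared, and levels were held at the lowest level measurable in all samples. Assays detected in every run of at least 1 population were tested with limma 3.58.1 in R 4.3.3, two-sided, at adjusted p under 0.05. Within-run differences used scipy 1.17.1. On simulated data, changes of 2 log2 units were recovered in 73.5% (KSL-RbTKO) to 98.1% (MLL-Prog) of those changed assays that were tested. Changed assays detected too rarely to be tested are not counted in these shares, so recovery among all changed assays is overstated. The percentage of false calls ran from 1.94 (MLL-LSC against KSL-B6) to 9.09 (KSL-RbTKO), with 5.62 for MLL-LSC against LT-HSC. Alternatives tried were leaving out each sample, a replicate block, pooling both KSL strains, fitting all groups at once (all groups in 1 fit), testing all assays, dropping the common floor, no scaling, the median as centre, quantile normalization, and a detection limit of Ct 32 or of Ct 38. Replicate numbers paired samples only between MLL-LSC and LT-HSC (r of 0.148 to 0.232 over 3 pairs), where no member passed the filter. The number of detected assays, 61 to 143 a run, limits the precision. A further criterion of the LT-HSC sort is not reported here.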

Additional observations from a re-analysis of the deposited data

Results flagged for a closer look

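Among the 4 LT-HSC runs, 1 run stood far from the others for each microRNA of the chromosome 17 cluster. miR-125a had a Ct of 29.8 in LT-HSC replicate 3 and 40 in the other 3 runs. miR-99b had a Ct of 31.8 in LT-HSC replicate 4 and 40 in the other 3. For each microRNA the other 3 runs were undetected and so tied, and any detected value in the remaining run would have been marked. The marks therefore follow from the detection limit, and no chance rate can be given for them. Replicates 3 and 4 had 86 and 96 assays detected, against 73 and 85 in replicates 1 and 2.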

How the results depend on the processing

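Called members remained 6 of 6 for blood and for brain against the other tissues under the settings run, and 5 or 6 for MLL-LSC and KSL-ETO against KSL-B6 (5 at Ct 32 and with KSL of both strains) except with all groups in 1 fit, where the counts were 2 for MLL-LSC, 3 for KSL-ETO and 3 for KSL-B6 against LT-HSC. That fit holds every level at the limit of the least sensitive run. KSL-B6 against LT-HSC gave 2 at Ct 32. NSPC-P0-Exp against NSPC-P0 (2 members) gave 5 at Ct 32 and with the median as centre, 1 at Ct 38 and with all assays tested, 0 with quantile normalization, and 1 to 2 without each sample. NSPC-Adult against NSPC-P0-Exp (4, all lower) gave 2 with no scaling, of which 1 was higher (miR-99b) and 1 lower (mmu-miR-99a). KSL-RbTKO (0) gave 1 at Ct 32, with all groups in 1 fit and with KSL of both strains, 2 at Ct 38, 5 with no scaling, 4 with no common floor, and 0 to 1 without each sample. KSL-Mixed against KSL-B6 (2) gave 0 at Ct 32, with the median as centre and with all assays tested, 1 at Ct 38 and with all groups in 1 fit, 6 with no scaling, and 0 to 2 without each sample. Muscle against the other tissues (4) gave 2 to 5 without each sample. With the replicate block the count for NSPC-P0-Exp against NSPC-P0 was 1, for KSL-B6 against LT-HSC 5 and for NSPC-Adult against NSPC-P0-Exp 3. It stayed at 6 for MLL-LSC and KSL-ETO against KSL-B6. The replicate numbers in these comparisons are shared numbers only. Apart from the values shown, the cause was not tested.

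Directions turned as follows. For Myoblast, miR-99a and miR-100 were -0.73 and -0.90 with quantile normalization, and -0.87 to 2.19 and -0.67 to 1.09 without each sample. For KSL-B6 against LT-HSC, miR-99b was -0.06 with all groups in 1 fit. For NSPC-P0-Exp, miR-99a, miR-100 and miR-125a were 0.13, 0.17 and 0.23 with no scaling and miR-99b -0.20 with the median as centre. For NSPC-Adult, miR-125a and miR-125b were 0.10 and 0.20 with no scaling. For KSL-Mixed, miR-125a was -1.80 with no scaling, miR-125b 0.36 with quantile normalization, 0.23 with the median as centre and -0.65 to 0.30 without each sample, and mmu-miR-99a -1 to 0.15 without each sample. For muscle, miR-99a was -0.14 at Ct 32, -0.03 with no scaling and -0.04 to 1.64 without each sample, and miR-99b -0.27 with quantile normalization and -0.37 with no scaling. Within runs, only both-detected values or no LT-HSC gave -2.33 (miR-125a minus miR-125b, blood against muscle), -2.36 (against brain), -1.48 (miR-99b minus miR-100, blood against brain), 1.59 (miR-99b minus miR-125a, blood against brain, turned) and 0.71 (miR-100 minus miR-125b, blood against brain). For miR-99a minus mmu-miR-99a, blood against muscle, both-detected values gave 1.75. Without a call, directions also turned between blood and muscle for miR-99b minus miR-125a (1.51 with both detected, 1.15 without LT-HSC) and miR-100 minus miR-125b (-0.46 in both), and between muscle and brain for miR-99a minus mmu-miR-99a (-1.04 with Ct as deposited). Among single members, 438 values under other settings neither turned nor changed their call, 38 gained the call, 46 lost it and 16 turned. Of the members' population levels under other settings, 93 values moved by their SD or more and 95 did not. A common floor for population levels was an alternative chosen after seeing the data. With no scaling, the split of all called assays into higher and lower moved from 58 and 19 to 106 and 6 for Myoblast, from 60 and 18 to 86 and 11 for KSL-B6 against LT-HSC, from 34 and 20 to 61 and 14 for NSPC-Adult, from 40 and 48 to 24 and 59 for KSL-ETO, from 18 and 36 to 0 and 96 for KSL-Mixed, from 11 and 18 to 0 and 61 for KSL-RbTKO, from 58 and 48 to 89 and 44 for brain and from 52 and 35 to 37 and 61 for muscle. With the median as centre it moved from 47 and 42 to 52 and 29 for MLL-LSC against KSL-B6.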
